A study of Mus musculus with 20 samples.

Results

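The levels of 10 chemokine-system genes were followed in the ileum of mice that differed in dietary tryptophan (Trp) and in antibiotic treatment. The list holds 9 chemokine ligands, Ccl20, Ccl25, Ccl28, Cxcl1, Cxcl2, Cxcl5, Cxcl16, Ccl11 and Ccl24, and 1 receptor, Ccr9. They were chosen by symbol, and all 10 were found among the 35204 genes of the deposited gene table. All 10 also passed the filter on low values that left 16306 genes for testing. RNA was sequenced from a piece of ileum cut close to the cecum of 20 female C57Bl6 mice in 4 groups of 5. The mice were 7 weeks old when the diets began. CD mice ate an amino acid control diet for 3 weeks and TDD mice ate the same diet without Trp, both under specific-pathogen-free (SPF) conditions with their microbiota left in place. CD+ABX and TDD+ABX mice ate the same diets and were given antibiotics (ABX; ampicillin, vancomycin, gentamycin, metronidazole and neomycin) in their drinking water. All of the mice came from 1 experiment, and whether mice of a group shared a cage is not given in the sources used here.

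Chemokines are small secreted proteins that guide white blood cells along a gradient towards the cells that make them. In the intestine some are made at rest by the epithelium. Ccl25 draws lymphocytes that carry Ccr9 to the small intestine, and Ccl28 draws IgA-producing plasmablasts that carry Ccr10. Ccl20 is made by the epithelium over lymphoid follicles and draws B cells and other Ccr6-bearing cells. Cxcl16 is made as a membrane-bound protein that can be shed, and its receptor Cxcr6 sits on T cells and innate lymphocytes. Cxcl1, Cxcl2 and Cxcl5 draw neutrophils through Cxcr2 and are made mainly on inflammatory signals. Ccl11 and Ccl24 are eotaxins, which draw eosinophils through Ccr3.

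The libraries held 36676963 to 58662617 estimated counts, and the range overlapped between groups. Each piece of tissue held a different mixture of cells. The summed level of 10 B cell and follicle genes lay between 102 and 227 CPM (counts scaled to the library total with edgeR's TMM factors) in 7 mice, namely CD mice 2 and 3, TDD mice 2 to 5 and TDD+ABX mouse 5, and between 6.53 and 37.8 CPM in the other 13. The summed level of 10 T cell and intraepithelial lymphocyte genes was 150.4 and 240.4 CPM in CD mice 4 and 5 and at most 81.5 CPM in every other mouse. The enterocyte gene Vil1 was abundant in every group. The 9 enterocyte genes summed to 13522 CPM in CD mouse 2, against 29064 to 33366 CPM in the other CD mice. The next lowest mouse of any group, CD+ABX mouse 1, had 21593 CPM. The ileal markers were uneven. Of 6 ileal enterocyte genes, the bile acid transporter genes Slc51a and Slc51b, the bile acid receptor gene Nr1h4 and Fgf15 averaged 184, 65.3, 35.3 and 73.8 CPM in CD mice. The bile acid-binding gene Fabp6 and the transporter gene Slc10a2 averaged 1.17 and 2.36 CPM in CD and 41.6 and 39.5 CPM in CD+ABX mice. Of 5 genes known from the more proximal small intestine, Lct and Gata4 averaged 2579.6 and 100.3 CPM in CD mice, whereas Onecut2, Cyp27b1 and Pdx1 averaged at most 1.93 CPM. The part of the position of the piece in the values below was not tested. In a piece of whole tissue, fewer cells of a type and less RNA per cell cannot be told apart.

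Levels could be compared between genes as TPM, which scales each transcript by its length. In CD mice Ccl25 stood far above the rest, at 775 ± 24.1 TPM (SD, n = 5). It was followed by Cxcl16 at 29.96 ± 4.81 TPM, Ccl11 at 15.998 ± 4.74 TPM, Ccl28 at 9.06 ± 1.11 TPM, Ccr9 at 3.57 ± 1.24 TPM, Ccl24 at 2.88 ± 0.634 TPM and Ccl20 at 1.87 ± 1.86 TPM. The neutrophil-attracting ligands lay at the bottom, with 0.385 ± 0.223 TPM for Cxcl1, 0.246 ± 0.161 TPM for Cxcl5 and 0.202 ± 0.0359 TPM for Cxcl2. In CD mice no mouse overlapped between Ccl25 and Cxcl16, between Cxcl16 and Ccl11, or between Ccl28 and Ccr9, and every other pair of neighbours in this order overlapped. Ccl25, Cxcl16, Ccl11 and Ccl28 kept the first 4 places in all 4 groups. The mean of Ccl24 lay above that of Ccl20 in both groups on the CD and below it in both groups on the TDD, with overlapping mice in each.

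The TDD was first compared with the CD in SPF mice. A gene was called when its adjusted p was under 0.05 and its change at least 2-fold by edgeR's quasi-likelihood test over all 16306 genes. These thresholds follow the study. In SPF mice 1 of the 10 genes was called, Ccl24, against 1.84% of all genes tested. Without the fold limit 3 of the 10 passed, Ccl25 and Ccl24 lower and Cxcl16 higher, against 14.4% of all genes. These same 3 were the genes whose CD and TDD mice did not overlap, a pattern seen in 9.58% of all genes. In ABX-treated mice the diet changed none of the 10 by the 2-fold criterion (0.331% of all genes), and 1, Ccl25, passed without the fold limit (1.77% of all genes). Here 3 members had an unadjusted p under 0.05, no member was called by DESeq2 or limma-voom either, and no member separated the groups (4.78% of all genes).

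Antibiotics were then compared with none on each diet. On the CD, 2 of the 10 genes were called, Ccr9 and Ccl24, both lower, against 2.30% of all genes, and the same 2 passed without the fold limit (12.8% of all genes). Ccl28, Ccr9 and Ccl24 did not overlap between CD and CD+ABX mice, a pattern seen in 9.74% of all genes. On the TDD, 1 of the 10 was called, Cxcl2, against 1.67% of all genes. This call carries little weight, since Cxcl2 reached the filter through TDD mouse 5 alone, in the group that the comparison finds high. Without the fold limit 3 passed, Ccl28, Cxcl2 and Cxcl16, all lower (15.5% of all genes), and Cxcl16 alone did not overlap between groups (11.0% of all genes). The test of whether the diet effect differed between SPF and ABX-treated mice, the interaction, called 0 of the 10 genes (0.0245% of all genes) and passed 0 without the fold limit (0.0368% of all genes). At an unadjusted p under 0.05 it held 2, Cxcl16 and Ccr9, and DESeq2 and limma-voom called 0 as well. The 4 comparisons share their groups, since the CD mice serve in both the diet and the antibiotic comparison, so their values below stand side by side and are not independent of each other. The median log2 change over all genes lay between -0.03 and 0.01 in each of the 4.

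**Figure D1:**
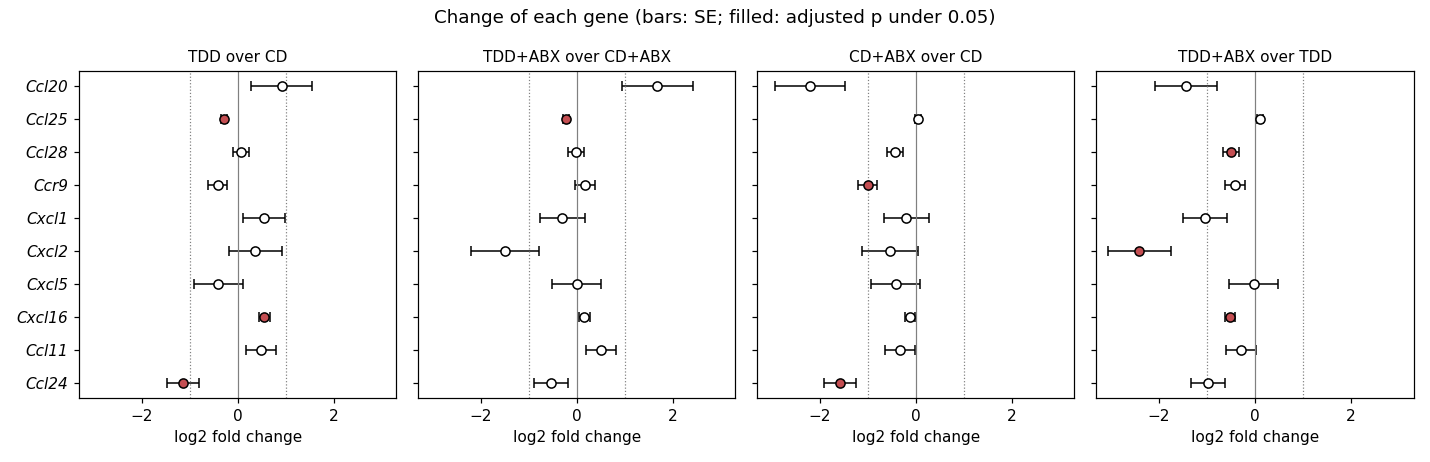
Log2 fold change of each of the 10 genes in the 4 comparisons, with bars for the SE from edgeR over 5 mice a group, dotted lines at a 2-fold change and filled points for an adjusted p under 0.05. Ccl24 lay to the left of 0 in every panel, at -1.14, -0.54, -1.57 and -0.98, and passed for TDD over CD and for CD+ABX over CD, while the changes of Ccl25 were all under 0.3 in size.

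Ccl25 (chr8:4325210-4360020, plus strand, GRCm38) was the most abundant of the genes. Its transcripts start near 3 positions. Transcripts that start at position 4349588 held 97.5% to 98.6% of the Ccl25 counts in every mouse, and a single coding transcript from this site held 96.6% over all mice. The transcripts that begin near position 4325210 have exons that overlap Elavl1 on the opposite strand, and 1 with a retained intron starts at position 4332259. All transcripts with other starts summed to between 7.18 and 12.5 CPM. The 250 bases before the used start are shown because nearly all of the Ccl25 signal began there, and the capitals mark TATAA.

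Ccl25, chr8:4349338-4349587, plus strand, GRCm38.p6 (RefSeq): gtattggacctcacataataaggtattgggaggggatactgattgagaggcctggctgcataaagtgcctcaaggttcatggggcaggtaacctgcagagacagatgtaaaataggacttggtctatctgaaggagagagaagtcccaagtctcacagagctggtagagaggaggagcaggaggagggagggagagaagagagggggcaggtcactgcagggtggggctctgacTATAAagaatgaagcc

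TATAA lay 16 to 12 bases before the start and was absent from the same window of the start at position 4325210, and 22.8% of 32851 RefSeq promoter windows of this length held it on either strand. A match of letters is a description and not evidence of a bound site.

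In CD mice the 5 values of Ccl25 were 530.0, 547, 531, 556 and 559 CPM, and in TDD mice they were 486, 444, 426, 444 and 429.6 CPM. Every TDD mouse lay below every CD mouse. In CD+ABX mice they were 528, 549, 580.2, 535 and 626 CPM and in TDD+ABX mice 464, 529, 469, 468 and 474 CPM. Of the TDD+ABX mice only mouse 2 reached into the CD+ABX range. The log2 change with diet was -0.29 (SE 0.058, adjusted p = 0.0028 by edgeR) in SPF mice, a fall of 18.2%, and -0.23 (SE 0.058, adjusted p = 0.05) in ABX-treated mice, a fall of 14.6%. The SPF value passed in each of the 20 fits that left out 1 mouse. The value in ABX-treated mice sat at the threshold and passed in only 2 of these 20 fits, with an adjusted p of up to 0.143. It passed under upper-quartile scaling and by DESeq2. It was lost by limma-voom (adjusted p = 0.0542) and, by edgeR, under RLE scaling (adjusted p = 0.0792) and robust shrinkage (adjusted p = 0.0562). By edgeR it was also lost with no filter (adjusted p = 0.141) and with a filter in 5 mice (adjusted p = 0.0644). The same held with replicate number as a block (adjusted p = 0.118) and with the 2 groups fitted alone (adjusted p = 0.12). Antibiotics moved Ccl25 by 0.05 (SE 0.058, adjusted p = 0.663) on the CD and by 0.11 (SE 0.058, adjusted p = 0.208) on the TDD. The interaction was 0.06 (SE 0.082, adjusted p = 0.881), so the diet effect was not shown to differ between SPF and ABX-treated mice. The genes whose levels over the 20 mice were most like those of Ccl25 were Tsen34 (Pearson r = 0.92, Spearman rho = 0.89), Rnpep (r = 0.91, rho = 0.92) and Ptdss1 (r = 0.90, rho = 0.91). After the group means were taken out these r were 0.62, 0.50 and 0.70.

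Ccr9 (chr9:123678439-123784330, plus strand) encodes the receptor for Ccl25. In CD mice it was at 7.05, 7.31, 6.68, 10.5 and 13.9 CPM and in CD+ABX mice at 4.23, 4.65, 4.67, 3.78 and 5.36 CPM. Every CD+ABX mouse lay below every CD mouse, and the highest CD values were those of mice 4 and 5, the mice with the highest summed T cell genes. The log2 change with antibiotics on the CD was -1.004 (SE 0.20, adjusted p = 0.0033), a 2.01-fold fall. The adjusted p stayed at or under 0.0114 in all 20 fits that left out 1 mouse, and the log2 change ranged from -1.098 to -0.79, so that the 2-fold criterion was met in 11 of the 20. TDD mice had 4.17, 7.15, 6.86, 8.04 and 7.85 CPM and TDD+ABX mice 4.98, 5.73, 5.21, 3.92 and 5.72 CPM. TDD mouse 1 was the lowest of its group and lay among the TDD+ABX mice. The log2 changes were -0.42 (SE 0.20, adjusted p = 0.172) for TDD against CD, 0.17 (SE 0.20, adjusted p = 0.744) for TDD+ABX against CD+ABX and -0.42 (SE 0.20, adjusted p = 0.165) for TDD+ABX against TDD. None of these passed. The interaction of 0.59 (SE 0.28) had an unadjusted p of 0.0499 and an adjusted p of 0.56 by edgeR.

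The 6 Ccr9 transcripts did not move together. Several of them overlap other genes. The transcript that starts at position 123678439 has exons that overlap Slc6a20a on the opposite strand and Gm17200 on the same strand. The strand of the reads is not stated, and it could not separate Ccr9 from Gm17200. It held 21.5% of the Ccr9 counts in CD mice on average, 17.8% in TDD mice, 56.9% in CD+ABX mice and 42.9% in TDD+ABX mice. In level it was at 1.95 ± 0.89 CPM in CD mice and 2.60 ± 0.514 CPM in CD+ABX mice (SD, n = 5). The other 5 transcripts together were at 7.15 ± 2.68 CPM in CD, 5.62 ± 1.504 CPM in TDD, 1.94 ± 0.153 CPM in CD+ABX and 2.87 ± 0.145 CPM in TDD+ABX mice. Their log2 difference between CD+ABX and CD was -1.59 (exact two-sided permutation test on log2(CPM + 0.5), p = 0.00794, Benjamini-Hochberg adjusted p = 0.0212 over 8 such tests). It was -0.82 for TDD+ABX against TDD and 0.47 for TDD+ABX against CD+ABX, each also with p = 0.00794 by the exact permutation test, the smallest that 5 against 5 mice can give. For TDD against CD it was -0.30 (exact permutation p = 0.365, adjusted p = 0.397). The transcript that overlaps Slc6a20a differed by 0.39 between CD+ABX and CD (exact permutation p = 0.183, adjusted p = 0.243) and by 0.73 between TDD+ABX and TDD (exact permutation p = 0.0397, adjusted p = 0.0794). It differed by -0.54 between TDD and CD (exact permutation p = 0.135, adjusted p = 0.216) and by -0.20 between TDD+ABX and CD+ABX (exact permutation p = 0.397, adjusted p = 0.397). The split between these transcripts was chosen after their values were seen, so the permutation p is no independent support for it. Among the other 5, transcripts that overlap AC165425.1 on the opposite strand held 25.7% and 11.9% of the Ccr9 counts over all mice. The first of these held 37.4% on average in CD and 6.99% in CD+ABX mice. Transcripts with no overlap summed to 3.02 ± 1.93 CPM in CD and 0.982 ± 0.298 CPM in CD+ABX mice (SD, n = 5). They were at 2.62 ± 0.931 CPM in TDD and 1.34 ± 0.286 CPM in TDD+ABX mice. Slc6a20a itself averaged 296 ± 45.4 CPM in CD, 213 ± 41.3 in TDD, 281 ± 36.5 in CD+ABX and 266 ± 34.1 CPM in TDD+ABX mice. It fell by 0.47 on the log2 scale with diet in SPF mice (adjusted p = 0.0181 by edgeR). The Ccr9 transcript that overlaps Slc6a20a, like Slc6a20a itself, had its lowest mean in TDD mice, at 1.19 CPM. The part of Slc6a20a, Gm17200 or AC165425.1 in the Ccr9 counts was not tested.

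**Figure D2:**
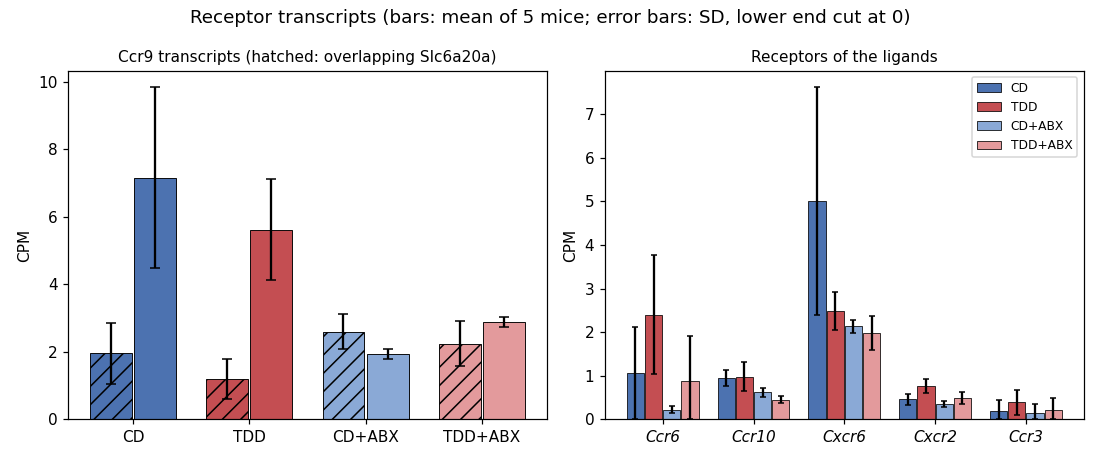
Left, summed CPM of the Ccr9 transcript that overlaps Slc6a20a (hatched) and of the other 5 Ccr9 transcripts (plain); right, CPM of the receptors of the ligands. Bars are means of 5 mice and error bars SD. The plain bars fall from 7.15 in CD to 1.94 in CD+ABX mice, whereas the hatched bars stay between 1.19 and 2.60.

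Ccr9 was most like 3 genes of leukocytes, Selplg (r = 0.97, rho = 0.92), Lat (r = 0.96, rho = 0.93) and Ms4a4b (r = 0.96, rho = 0.91), over 20 mice, and r was 0.94, 0.92 and 0.90 once the group means were taken out. Of the 10 T cell and intraepithelial lymphocyte genes, 9 fell and 0 rose with antibiotics on the CD (12.8% of all genes passed in either direction), with a median log2 change of -1.43. Among them were the CD3 chain Cd3e (-1.63, adjusted p = 0.0011), Cd8a (-1.84, adjusted p = 0.0019) and the granzyme Gzma (-1.48, adjusted p = 0.0279). The summed level of the list was 55.7 to 240.4 CPM in CD mice and 40.0 to 49.6 CPM in CD+ABX mice, with no member of the list at 0 in either group. On the TDD 3 of the 10 fell with antibiotics, against 15.5% of all genes in either direction. With the diet in SPF mice 2 of the 10 fell, against 14.4% of all genes. The part of T cell content in the Ccr9 values was not tested.

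**Figure D3:**
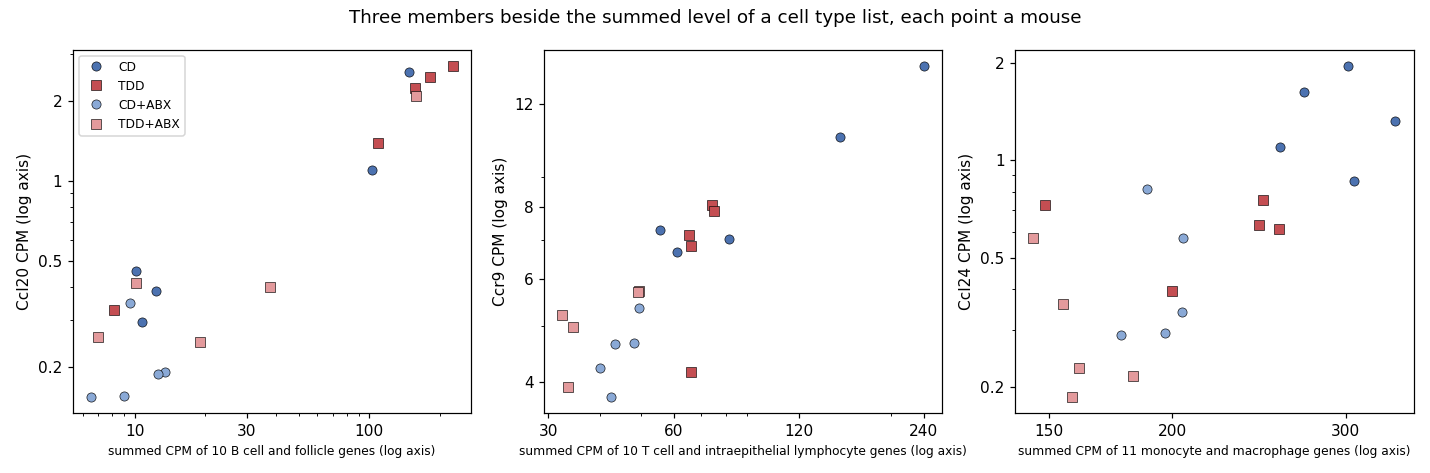
CPM of Ccl20, Ccr9 and Ccl24 in each of the 20 mice against the summed CPM of 10 B cell and follicle genes, 10 T cell and intraepithelial lymphocyte genes and 11 monocyte and macrophage genes, all on log axes. The Ccl20 panel splits into 7 mice at the upper right (1.09 to 2.70 CPM) and 13 at the lower left (0.154 to 0.459 CPM), and the 2 highest Ccr9 mice are CD mice.

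Ccl28 (chr13:119623819-119654359, plus strand) came almost wholly, at 96.6%, from 1 coding transcript. CD mice had 21.2, 24.2, 28.3, 22.9 and 23.5 CPM and CD+ABX mice had 18.5, 19.95, 19.02, 19.5 and 12.4 CPM. The groups did not overlap, but the log2 change of -0.43 (SE 0.17, adjusted p = 0.102 by edgeR) did not pass. TDD mice had 16.9, 25.1, 27.3, 34.2 and 21.9 CPM and TDD+ABX mice had 21.8, 15.6, 21.0, 16.5 and 13.4 CPM. These groups overlapped through TDD mouse 1. Ccl28 fell by 0.50 on the log2 scale (SE 0.17, adjusted p = 0.0484) with antibiotics on the TDD, and this passed in only 3 of the 20 fits that left out 1 mouse, with an adjusted p of up to 0.142. It was lost as well by limma-voom (adjusted p = 0.0618) and under RLE scaling (adjusted p = 0.0546). The diet moved Ccl28 by 0.06 (SE 0.17, adjusted p = 0.85) in SPF and by -0.01 (SE 0.17, adjusted p = 0.98) in ABX-treated mice. Its receptor gene Ccr10 averaged 0.946 ± 0.179 CPM in CD, 0.98 ± 0.336 in TDD, 0.619 ± 0.113 in CD+ABX and 0.456 ± 0.0793 CPM in TDD+ABX mice. Ccr10 fell by 1.103 on the log2 scale (adjusted p = 0.0049) with antibiotics on the TDD, the comparison in which Ccl28 passed. In that comparison 4 of 7 plasma cell genes fell, among them the immunoglobulin joining chain Jchain (-1.05, adjusted p = 0.0023 by edgeR). In the same list 1 rose, Sdc1, which epithelium also makes. Of all genes 15.5% passed there in either direction. With diet in SPF mice, where Ccl28 did not pass, 4 of 7 plasma cell genes rose and 0 fell, against 14.4% of all genes. With antibiotics on the CD 2 rose and 2 fell, against 12.8%. With diet in ABX-treated mice 0 passed by edgeR, DESeq2 or limma-voom, against 1.77% by edgeR, and 1 had an unadjusted p under 0.05. The part of plasma cell content in the Ccl28 values was not tested. The genes most like Ccl28 were Wdr48 (r = 0.88), N4bp2 (r = 0.85) and Cntrl (r = 0.84), with r of 0.81, 0.74 and 0.72 within groups.

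Ccl20 (chr1:83116766-83119167, plus strand) fell into a high and a low set of mice. CD mice had 0.386, 1.09, 2.55, 0.459 and 0.295 CPM and TDD mice had 0.326, 2.22, 1.39, 2.70 and 2.45 CPM. CD+ABX mice had 0.154, 0.192, 0.348, 0.156 and 0.189 CPM and TDD+ABX mice had 0.248, 0.400, 0.413, 0.259 and 2.08 CPM. Thus 7 mice stood at 1.09 CPM or more and 13 at 0.459 CPM or less, and these were the same 7 mice whose B cell genes summed to over 100 CPM. No comparison passed. The log2 changes were 0.91 (SE 0.63, adjusted p = 0.372) for TDD against CD, 1.68 (SE 0.73, adjusted p = 0.28) for TDD+ABX against CD+ABX, -2.20 (SE 0.72, adjusted p = 0.0514) for CD+ABX against CD and -1.43 (SE 0.65, adjusted p = 0.141) for TDD+ABX against TDD. The value for CD+ABX against CD did pass by DESeq2 (adjusted p = 0.0116) and with the 2 groups fitted alone (adjusted p = 0.0464 by edgeR). It also passed on dropping CD mouse 1, 4 or 5, TDD mouse 1 or TDD+ABX mouse 5. Over all 20 fits that left out 1 mouse the adjusted p ran from 0.0217 to 0.226 by edgeR.

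The genes most like Ccl20, ranked by r over the 20 mice, were Cnr2, Fcrl1 and Mfge8. Of these Fcrl1 is an Fc receptor-like gene of B cells and Mfge8 is abundant in follicular dendritic cells. Since the mice form separate sets, r is given within each. It was 0.85, 0.82 and 0.80 over the 7 mice and 0.45, 0.58 and 0.47 over the 13. The receptor gene Ccr6 had 0.229 to 2.41 CPM in CD, 0.276 to 3.94 CPM in TDD, 0.120 to 0.307 CPM in CD+ABX and 0.239 to 2.68 CPM in TDD+ABX mice, and did not pass in any comparison. None of the 10 B cell and follicle genes passed in any comparison by edgeR, although their median log2 change was 1.23 for TDD against CD and -2.82 for CD+ABX against CD. At an unadjusted p under 0.05 the list held 0 genes for TDD against CD, 7 for TDD+ABX against CD+ABX, 10 for CD+ABX against CD and 1 for TDD+ABX against TDD. DESeq2 passed 5 of the 10 for CD+ABX against CD and 0 in each other comparison, and limma-voom passed 0. With antibiotics on the CD 3 of 8 genes of the follicle-associated epithelium fell, among them the M cell gene Gp2 (-1.90, adjusted p = 0.0279 by edgeR). Of all genes 12.8% passed there in either direction. Whether a piece held follicle tissue is not given in the sources used here, and its part in the Ccl20 values was not tested. When the 7 mice were left out, no mouse reached the 0.5 CPM minimum and Ccl20 was no longer tested.

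Cxcl16 (chr11:70453983-70459984, minus strand) was the only one of the 10 genes to pass as higher, for TDD against CD. CD mice had 46.5, 32.0, 51.9, 40.9 and 41.9 CPM and TDD mice had 65.3, 61.1, 64.7, 68.5 and 53.9 CPM. Every TDD mouse was above every CD mouse. CD+ABX mice had 36.3, 40.5, 33.7, 35.6 and 49.5 CPM and TDD+ABX mice had 43.6, 44.7, 42.4, 41.2 and 46.6 CPM, so the TDD+ABX mice lay below all TDD mice and overlapped the CD+ABX mice through CD+ABX mouse 5. The log2 change with diet was 0.56 (SE 0.11, adjusted p = 0.0026) in SPF mice and 0.16 (SE 0.11, adjusted p = 0.541) in ABX-treated mice. With antibiotics it was -0.12 (SE 0.11, adjusted p = 0.537) on the CD and -0.52 (SE 0.11, adjusted p = 0.0054) on the TDD. Both of the values that passed did so in all 20 fits that left out 1 mouse. The interaction was -0.40 (SE 0.16), with an unadjusted p of 0.0202 and an adjusted p of 0.425 by edgeR, and by that test the diet effects in SPF and ABX-treated mice were not shown to differ.

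The full-length coding transcript held 65.0% of the Cxcl16 counts, a transcript annotated for nonsense-mediated decay held 29.5% and one with a retained intron held 5.55%. The coding share was 66.3% ± 1.36 in CD, 64.9% ± 1.68 in TDD, 64.5% ± 3.07 in CD+ABX and 64.2% ± 1.61 in TDD+ABX mice (SD, n = 5). The coding transcript alone averaged 28.3 ± 5.26 CPM in CD and 40.7 ± 4.42 CPM in TDD mice. Its exons overlap Zmynd15 on the other strand. The receptor gene Cxcr6 moved the other way in SPF mice. It averaged 5.005 ± 2.61 CPM in CD and 2.49 ± 0.436 CPM in TDD mice and fell by 1.003 on the log2 scale with the diet (adjusted p = 0.0109). Its CD values reached from 2.75 to 9.09 CPM. The sheddases Adam10 and Adam17, which release Cxcl16 from the membrane, were at 99.7 and 41.5 CPM in CD and at 94.4 and 38.3 CPM in TDD mice and did not pass. The genes most like Cxcl16 were Birc3 (r = 0.91, rho = 0.84), Gsk3b (r = 0.90, rho = 0.86) and Tmem243 (r = 0.89, rho = 0.88), with r of 0.65, 0.79 and 0.87 within groups.

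**Figure D4:**
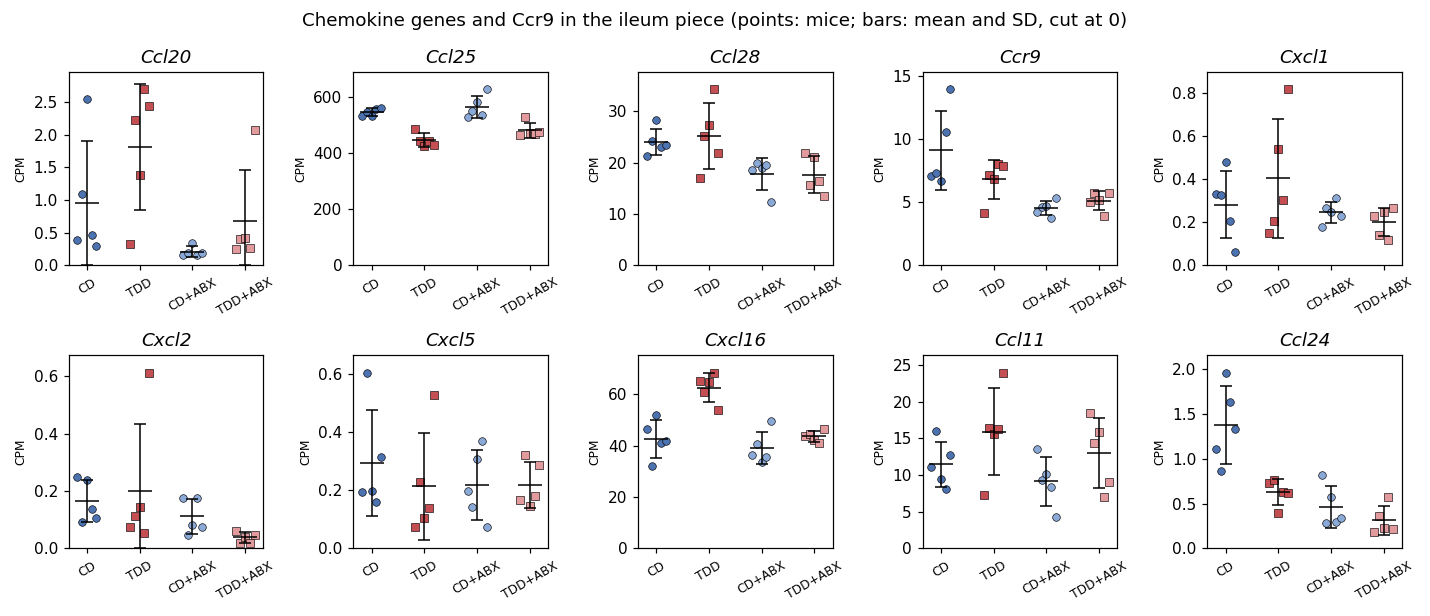
CPM of each of the 10 genes in every mouse, with the mean and SD of each group of 5 and each axis starting at 0. Ccl25 and Ccl24 sit lower and Cxcl16 sits higher in TDD than in CD mice with no overlap, while single mice stand out for Cxcl2 (TDD mouse 5, 0.612 CPM) and Ccl20 (TDD+ABX mouse 5, 2.08 CPM).

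Cxcl1 (chr5:90891241-90893115), Cxcl2 (chr5:90903871-90905938) and Cxcl5 (chr5:90759360-90761624) lie in one cluster on the plus strand and rested on 1 to 48 counts a mouse. Cxcl1 and Cxcl2 passed the filter of 0.5 CPM in at least 1 mouse only through TDD mice, Cxcl2 through mouse 5 alone, and Cxcl5 passed through CD mouse 2 and TDD mouse 5. Cxcl1 and Cxcl2 share a stretch of promoter letters, and Ccl20 carries a related one. The 250 bases before each RefSeq start are shown because these genes respond to NF-kB in many tissues. The capitals mark a match to the NF-kB consensus of 10 letters, found on both strands with an offset of 1 base in Cxcl1 and Cxcl2 and on the opposite strand in Ccl20, and in Ccl20 also TATAA.

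Cxcl1, chr5:90890995-90891244, plus strand, GRCm38.p6 (RefSeq): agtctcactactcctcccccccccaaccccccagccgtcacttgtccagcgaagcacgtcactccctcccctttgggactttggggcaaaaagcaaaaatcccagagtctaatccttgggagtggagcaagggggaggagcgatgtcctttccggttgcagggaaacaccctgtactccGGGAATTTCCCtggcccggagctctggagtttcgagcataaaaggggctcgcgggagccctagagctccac

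Cxcl2, chr5:90903649-90903898, plus strand, GRCm38.p6 (RefSeq): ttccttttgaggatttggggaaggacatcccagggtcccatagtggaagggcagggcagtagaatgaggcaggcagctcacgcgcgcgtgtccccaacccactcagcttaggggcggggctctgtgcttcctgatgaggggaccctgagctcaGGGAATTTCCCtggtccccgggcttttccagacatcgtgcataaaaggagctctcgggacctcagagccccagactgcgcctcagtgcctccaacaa

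Ccl20, chr1:83116516-83116765, plus strand, GRCm38.p6 (RefSeq): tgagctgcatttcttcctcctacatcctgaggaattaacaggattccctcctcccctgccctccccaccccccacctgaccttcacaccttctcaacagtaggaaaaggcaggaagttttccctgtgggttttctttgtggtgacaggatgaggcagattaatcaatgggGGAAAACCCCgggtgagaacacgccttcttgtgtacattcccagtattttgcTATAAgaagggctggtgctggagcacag

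Of the 32851 promoter windows 7.25% held the NF-kB consensus on either strand. It began 71 bases before the RefSeq start in Cxcl1, 97 in Cxcl2 and 80 in Ccl20. The earliest start of the counted transcripts lies 4 bases before the RefSeq start in Cxcl1 and 28 bases before it in Cxcl2, so the last 4 and 28 bases of those windows are inside the gene and the motif began 67 and 69 bases before the counted starts. The consensus was not found in these windows of Ccl25, Ccl28 or Ccr9.

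Cxcl2 had 9, 4, 12, 6 and 5 counts in CD mice and 3, 5, 7, 2 and 36 counts in TDD mice. In CD+ABX mice it had 8, 2, 4, 9 and 4 counts and in TDD+ABX mice 3, 1, 2, 1 and 2 counts. The TDD+ABX mice were low as a group, and TDD mouse 5 stood far above the rest of its own. The log2 change for TDD+ABX against TDD was -2.41 (SE 0.66, adjusted p = 0.0205 by edgeR). Because TDD mouse 5 alone brought Cxcl2 past the filter, this p is no support for a lower level in TDD+ABX mice. With no filter the change was -2.38 (SE 0.64, adjusted p = 0.0258), and with no filter and TDD mouse 5 left out it was -1.31 (SE 0.53, adjusted p = 0.156) and did not pass. Without TDD+ABX mouse 2 the adjusted p was 0.0543. The summed counts were 9 and 53, a ratio of 0.161 after scaling for depth, with an exact 95% interval from 0.070 to 0.330 that covers counting error only. Without TDD mouse 5 the sums were 9 and 17, the ratio was 0.373 with an interval from 0.146 to 0.884, and Cxcl2 was under the filter. The groups overlapped at the level of single mice. The other changes of Cxcl2 did not pass, at 0.37 (SE 0.55) for TDD against CD, -1.50 (SE 0.71) for TDD+ABX against CD+ABX and -0.54 (SE 0.59) for CD+ABX against CD.

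Cxcl1 ranged from 0.0632 to 0.479 CPM in CD, from 0.151 to 0.816 CPM in TDD, from 0.176 to 0.311 CPM in CD+ABX and from 0.119 to 0.263 CPM in TDD+ABX mice. No comparison passed for Cxcl1, which reached the filter only through TDD mice 3 and 5. With no filter its log2 change for TDD+ABX against TDD was -1.02 (SE 0.44, adjusted p = 0.179). Cxcl5 ranged from 0.161 to 0.605 CPM in CD, from 0.0753 to 0.527 CPM in TDD, from 0.0754 to 0.370 CPM in CD+ABX and from 0.145 to 0.320 CPM in TDD+ABX mice, with log2 changes between -0.42 and -0.01 and SE of at most 0.51. TDD mouse 5 was the highest of its group for all 3 ligands. The genes most like Cxcl1 were Pde4b (r = 0.76), Nr4a3 (r = 0.73) and Cecr2 (r = 0.71), those most like Cxcl2 were Igkv4-72 (r = 0.78), Ighv5-17 (r = 0.75) and mt-Nd4 (r = 0.71), and those most like Cxcl5 were Hdhd5 (r = 0.81), Ewsr1 (r = 0.79) and Tmem200b (r = 0.78). At so few counts these r carry large counting error.

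The receptor gene Cxcr2 averaged 0.463 ± 0.122 CPM in CD, 0.759 ± 0.161 in TDD, 0.356 ± 0.0719 in CD+ABX and 0.488 ± 0.137 CPM in TDD+ABX mice and passed in no comparison, and Cxcr1 had too few counts to be tested. Of 10 neutrophil genes only 3 could be tested and the list summed to between 2.0 and 5.1 CPM over the 20 mice, with the granule gene Elane at 0 in every mouse of 3 groups. All 3 pointed lower with antibiotics on either diet. Of these 1 passed on the CD, against 12.8% of all genes, and 0 passed in any other comparison by edgeR, DESeq2 or limma-voom. Of 19 cytokines and receptors that can induce these ligands, 11 were tested. Il17a, Il17f, Il22, Il4, Il5, Il13, Il25 and Csf3 had too few counts. By edgeR none of the 11 passed with diet in SPF or ABX-treated mice, where 4 and 3 had an unadjusted p under 0.05. DESeq2 passed 1 in each of these and limma-voom 1 and 0. With antibiotics on the CD 2 rose, the IL-17 receptor chain Il17rc (0.63, adjusted p = 0.0021) and the TNF receptor Tnfrsf1a (0.28, adjusted p = 0.0463), and 1 fell, the IL-17 receptor chain Il17ra (-0.23, adjusted p = 0.0171). On the TDD Il17rc rose (0.44, adjusted p = 0.017), while the cytokine Tnf (-0.94, adjusted p = 0.0292) and the IL-4 receptor chain Il4ra (-0.37, adjusted p = 0.0242) fell. These shares stand beside the 12.8% and 15.5% of all genes that passed in either direction. Of 10 NF-kB and IL-17 response genes, 2 rose with diet in SPF mice, against 14.4% of all genes. They were the cytokine-signalling inhibitor Socs3 (2.03, adjusted p = 1.4e-05 by edgeR) and the siderophore-binding gene Lcn2 (0.62, adjusted p = 0.0293), which were named after their values were seen. In this list 1 rose with diet in ABX-treated mice (1.77% of all genes) and 1 with antibiotics on the CD (12.8%). On the TDD 2 fell with antibiotics (15.5%).

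Ccl24 (chr5:135569937-135573049, minus strand) fell with the diet in SPF mice and with antibiotics on the CD. CD mice had 1.102, 0.861, 1.96, 1.63 and 1.33 CPM, from 37 to 98 counts. TDD mice had 0.728, 0.756, 0.394, 0.633 and 0.612 CPM and CD+ABX mice had 0.816, 0.288, 0.573, 0.292 and 0.339 CPM. All 10 of these mice lay below every CD mouse. TDD+ABX mice had 0.186, 0.360, 0.227, 0.577 and 0.215 CPM, and their range overlapped both that of TDD and that of CD+ABX mice. Ccl24 fell by 1.14 on the log2 scale with the diet (SE 0.33, adjusted p = 0.0248), a 2.21-fold fall, and by 1.57 with antibiotics on the CD (SE 0.33, adjusted p = 0.0051), a 2.98-fold fall. The antibiotic value passed in all 20 fits that left out 1 mouse. The diet value was lost on dropping CD mouse 3, CD mouse 4, TDD mouse 3 or TDD mouse 5, where the adjusted p rose to as much as 0.073. The log2 changes of -0.54 (SE 0.35, adjusted p = 0.506) for TDD+ABX against CD+ABX and of -0.98 (SE 0.35, adjusted p = 0.0643) for TDD+ABX against TDD did not pass, and the interaction was 0.60 (SE 0.48, adjusted p = 0.783).

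Ccl24 was most like Fth1 (r = 0.92, rho = 0.89), Plin2 (r = 0.91, rho = 0.87) and Arsb (r = 0.90, rho = 0.90), which encode a ferritin chain, a lipid droplet protein and a lysosomal sulfatase, and r was 0.66, 0.65 and 0.63 within groups. Resident macrophages are a known source of Ccl24. Of 11 monocyte and macrophage genes 7 fell and 0 rose with diet in SPF mice, against 14.4% of all genes in either direction. Their median log2 change was -0.45. With antibiotics on the CD 10 fell and 0 rose, against 12.8% of all genes, with a median of -0.49. Among them were Csf1r (-0.58, adjusted p = 0.0058, and -0.80, adjusted p = 9e-04), which encodes the growth factor receptor of macrophages, and the complement gene C1qc (-0.40, adjusted p = 0.0092, and -0.49, adjusted p = 0.003). The list summed to 257 to 337 CPM in CD, 148 to 257 CPM in TDD, 178 to 205 CPM in CD+ABX and 145 to 182 CPM in TDD+ABX mice, and no gene of it was at 0 in any group. On the TDD, where Ccl24 did not pass, 4 of the 11 fell and 0 rose with antibiotics, against 15.5% of all genes. With diet in ABX-treated mice 0 passed by edgeR and 1 by DESeq2, against 1.77% of all genes by edgeR. The part of macrophage content in the Ccl24 values was not tested.

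Ccl11 (chr11:82057823-82062955, plus strand), the other eotaxin and a product of stromal cells, did not follow Ccl24. It ranged from 8.10 to 16.03 CPM in CD, from 7.35 to 24.0 CPM in TDD, from 4.24 to 13.6 CPM in CD+ABX and from 7.09 to 18.5 CPM in TDD+ABX mice. The groups overlapped in every comparison and none passed, with log2 changes of 0.47 (SE 0.31, adjusted p = 0.342) and 0.51 (SE 0.31, adjusted p = 0.483) with diet and of -0.33 (SE 0.31, adjusted p = 0.565) and -0.30 (SE 0.31, adjusted p = 0.546) with antibiotics. Its levels were most like those of Mphosph9 (r = 0.93), Haus6 (r = 0.92) and Aqp4 (r = 0.90), also within groups (r = 0.91, 0.89 and 0.92). The shared receptor gene Ccr3 had 0 to 0.731 CPM over all mice and passed in no comparison. Of 8 eosinophil genes 5 were tested, and 1 passed anywhere, Siglecf, which rose by 1.07 on the log2 scale (adjusted p = 0.0091) with antibiotics on the CD, from 4.15 ± 0.673 to 8.70 ± 3.59 CPM. Siglecf is also made by tuft cells. The eosinophil peroxidase gene Epx had too few counts to be tested and Ear1 was at 0 in every mouse.

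Of the 9 receptors and scavenging receptors of these ligands 8 were tested. With diet in SPF mice 1 fell, Cxcr6, against 14.4% of all genes that passed in either direction. With antibiotics on the CD 2 fell, Cxcr6 and the endothelial scavenger Ackr1 (-0.79, adjusted p = 0.007), against 12.8% of all genes, and on the TDD 3 fell, against 15.5%, namely Ccr10, Ackr1 (-0.65, adjusted p = 0.0184) and Ackr2 (-0.81, adjusted p = 0.0474). None rose. With diet in ABX-treated mice 0 passed by edgeR, DESeq2 or limma-voom, and 1 had an unadjusted p under 0.05. Of 16 further chemokine ligands 11 were tested, and those that passed fell. They numbered 1 with diet in SPF mice, 0 with diet in ABX-treated mice, 3 with antibiotics on the CD and 1 with antibiotics on the TDD, to be read against the same shares of all genes. The count of 0 was the same by DESeq2 and limma-voom, and 1 gene there had an unadjusted p under 0.05. Of the 5 genes for proteases that process chemokines, 2 rose with diet in SPF mice, against 14.4% of all genes. They were Dpp4 (0.53, adjusted p = 0.0221 by edgeR), whose product trims the start of several chemokines, and Mmp7 (0.84, adjusted p = 0.0166), a Paneth cell protease. With antibiotics 1 rose and 1 fell on the CD (12.8% of all genes), and 2 fell on the TDD (15.5% of all genes).

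Left out together, the 7 mice with over 100 CPM of B cell genes leave TDD with mouse 1 alone, which is then assumed to vary like the other groups. In that fit the log2 changes for TDD against CD were -0.89 for Ccl24, -0.17 for Ccl25 and 0.60 for Cxcl16. With 1 TDD mouse the fit cannot decide whether the changes against TDD hold, and no p is given. For CD+ABX against CD, where 3 CD mice and all 5 CD+ABX mice remained, Ccr9 changed by -1.21 and Ccl24 by -1.55. The CD mice that remained included mice 4 and 5, which had the highest Ccr9 values. For TDD+ABX against TDD the changes were -0.60 for Cxcl16 and 0.14 for Ccl28.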

How the data were processed

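Sequencing was poly-A RNA-seq of 20 ileum pieces, 5 mice in each of 4 groups taken from the treatment labels of the samples. Per the file headers and the submitters' processing notes, the authors made estimated counts and TPM per transcript with kallisto 0.44.0 on the GRCm38 transcriptome and deposited a gene table of estimated counts, which held whole numbers. The deposited TPM values per transcript were summed per gene here through GENCODE M21; 3899 of 113193 transcripts had no match. The strand setting of the reads is not given in the sources used here.

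Genes that reached 0.5 CPM in 1 mouse or more were fitted in edgeR 4.0.16 (R 4.3.3; TMM scaling, quasi-likelihood test, robust option off) over the 4 groups at once, with Benjamini-Hochberg adjustment over all 16306 genes. p-values measure the spread between mice of 1 experiment. The steps were tested on simulated data. The alternatives were RLE and upper-quartile scaling, no filter, a filter in 5 mice, DESeq2 1.42.0, limma-voom (limma 3.58.1), no fold limit, a replicate block, the 2 groups alone and leaving out each mouse. Robust shrinkage, library totals over all genes, leaving out 7 mice, and no filter with TDD mouse 5 left out were chosen after seeing the data. The 10 genes, the 23 gene lists and the rule for named genes were chosen with earlier results of these data known. The rule named all 10, list genes that passed beside a member of paired role, and the 3 genes with the highest r of log2(CPM + 0.5) over 20 mice among genes with a mean of at least 1 CPM. Promoter sequences came from RefSeq and matched 5 of the ligand genes and Ccr9; those of Cxcl5, Cxcl16, Ccl11 and Ccl24 were not used here. Replicates differed beyond sampling noise. For each pair of mice of a group, the median chi-square over genes was at least 1.85. It was 14.9 to 23.7 for pairs with CD mouse 2 and 2.32 to 5.14 for the other CD pairs. Pairs with CD+ABX mouse 5 had 10.9 to 16.6 and the other CD+ABX pairs 2.66 to 3.56. Pairs with TDD mouse 1 had 7.38 to 11.0 and the other TDD pairs 2.67 to 4.13.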

Additional observations from a re-analysis of the deposited data

Results flagged for a closer look

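Dixon's test at the 95% level, applied to each of the 10 genes in each of the 4 groups, marked 5 of the 40 sets of 5 mice as holding a mouse far from the others. Chance marks about 1 in 20. The marked values were Ccl20 in CD+ABX mouse 3 (0.348 CPM) and in TDD+ABX mouse 5 (2.08 CPM), Ccl25 in TDD+ABX mouse 2 (529 CPM), Ccl28 in CD+ABX mouse 5 (12.4 CPM) and Cxcl2 in TDD mouse 5 (0.612 CPM). TDD+ABX mouse 5 had 157 CPM of summed B cell genes, against 7.0 to 37.8 CPM in the other TDD+ABX mice. The part of this in its Ccl20 value was not tested.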

How the results depend on the processing

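Each comparison's number of called genes among the 10 was recomputed under every alternative. Numbers without the 7 mice are left out for TDD against CD and for TDD+ABX against TDD, since TDD then held 1 mouse. For TDD against CD the number was 1. It was 0 with the replicate block and with no filter and TDD mouse 5 left out. It was 3 with no fold limit, and 0 to 1 when 1 mouse was left out. For TDD+ABX against CD+ABX it was 0, 1 with no fold limit, and 0 throughout when 1 mouse was left out. For CD+ABX against CD it was 2; it was 1 under RLE scaling, no filter, the filter in 5 mice, limma-voom, the replicate block and with no filter and TDD mouse 5 left out, and 1 to 3 when 1 mouse was left out. For TDD+ABX against TDD it was 1. It was 0 under the filter in 5 mice, the 2 groups alone and with no filter and TDD mouse 5 left out. It was 3 with no fold limit, and 0 to 2 when 1 mouse was left out. The interaction gave 0 in every setting. Without the 7 mice Ccl28 (0.14) and Ccr9 (0.25) changed sign for TDD+ABX against TDD. TDD was then mouse 1 alone, the lowest TDD mouse for both genes, at 16.9 and 4.17 CPM. Why mouse 1 was low was not tested. Mice of different groups share only a replicate number: of 20 pairs 5 correlated over 0.1 (range -0.42 to 0.29). With the replicate block Ccl24 for TDD against CD had an adjusted p of 0.0552. Cxcl1, Cxcl2 and Cxcl5 rested on under 50 counts a mouse, which limits what could be seen of them.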
